A study of Homo sapiens with 12 samples.

Results

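The genes described here are the antioxidant genes of the NRF2 pathway: NFE2L2, which encodes the transcription factor NRF2, its partner KEAP1, and the target genes HMOX1, NQO1, GCLM, GCLC, TXNRD1, SRXN1 and OSGIN1. They were chosen by name, as the rows of the deposited value table that carry these symbols, and all 9 were found among 34687 rows. The rule uses no measured value, but the members were chosen with earlier results of these data known. The study measured RNA on Illumina HumanHT-12 BeadChips in HCT116, a line from a human colon carcinoma, and in PANC1, a line from a carcinoma of the pancreatic duct. Controls of each line were kept in DMSO (0.05%), the solvent, and the treated cultures in ICG-001 or C646, both at 10 uM. With collection at 12 h or 96 h this gives 12 groups. ICG-001 interferes with the binding of beta-catenin to the coactivator CBP, and C646 is an inhibitor of the acetyltransferases p300 and CBP.

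Every group had 1 column of values. By the labels, 11 of the 12 columns are the authors' means of 2 arrays, and the column of PANC1 cells in ICG-001 at 12 h is the authors' mean of 3 arrays. The arrays behind a mean were not analysed here, so replicates have no measurable spread, nothing was tested and there are no p-values. Differences are given as sizes, and the number of arrays limits their precision. By the study's methods, the 96 h cultures were started at a lower density than the 12 h cultures and were passaged during treatment, and medium and drug were renewed every day. Time therefore cannot be told apart from density and passage. Each line is 1 established culture. A signal averages a whole culture, so more RNA per cell and a larger share of cells with the RNA cannot be told apart.

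NRF2 is a transcription factor that drives genes of glutathione synthesis, thioredoxin recycling, quinone detoxification and heme breakdown. In unstressed cells KEAP1, an adaptor of a ubiquitin ligase, binds NRF2 and has it degraded. Oxidants and electrophiles modify cysteines of KEAP1, NRF2 then builds up as a protein, and it binds antioxidant response elements in its target genes together with a small MAF protein. RNA of NFE2L2 is therefore not a measure of NRF2 activity, and the RNA of the targets is the usual readout.

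The values are signal intensities on a linear scale. A detection limit was set for each column from the spread of its dimmest genes, and it lay between 143 and 145 in the HCT116 columns, and in PANC1 between 135 and 138. Between 15202 and 15810 genes in HCT116 columns and between 15393 and 16694 in PANC1 columns exceeded it. In this text a gene rose or fell where its signal changed at least 1.5-fold (0.585 on the log2 scale) and exceeded the limit in at least 1 of both columns compared. The log2 ratios of genes that no column of a line showed above its limit had an SD that ranged from 0.062 to 0.074 across the comparisons, which describes dim genes and is no spread between replicates. Sorted signals differed by a mean of 0.0037 to 0.0093 on the log2 scale between columns of a line and by 0.063 to 0.066 between lines, as columns scaled in separate sets would, and the lines are therefore compared through ratios within each. The labels were checked against marker genes. EPCAM, an epithelial adhesion molecule, ranged from 6553 to 9562 in HCT116, and CDX2, an intestinal transcription factor, from 354 to 452. The intestinal markers CDX1, VIL1, LGALS4 and CEACAM5 stayed under the limit in all 6 HCT116 columns. EPCAM (509 to 873) and CDX2 (187 to 223) also exceeded the limit in all 6 PANC1 columns, and LGALS4 (136 to 155) exceeded it in 5. Of 10 genes of a colon epithelium list, 5 exceeded the limit in all columns of HCT116 and 5 in all columns of PANC1. Of 9 genes of a ductal carcinoma list, 9 exceeded it in all 6 columns of PANC1, among them VIM at 14637 to 18144, and 6 in HCT116, where MSLN, mesothelin, was higher (879 to 1812) than in PANC1 (165 to 243). These lists therefore do not separate the lines by presence alone. Among blood cell markers, PTPRC and CD3E were under the limit in all 12 columns, while CD14 exceeded it in all 6 PANC1 columns (142 to 173), LYZ in 3 HCT116 columns (up to 157) and HBB in 1 (145).

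Of the 9 genes, 8 were above the limit in all 12 columns. OSGIN1 was the exception, and it has a second row under its older symbol OKL38, described at the end of the gene-by-gene account. HMOX1, SRXN1, NQO1 and GCLM rose with ICG-001 in at least 1 comparison. With C646 no row that carries a member's name changed, although HMOX1 in HCT116 passed the threshold with C646 at both times after a background correction. Shares of all genes were computed without that correction only. In HCT116 cells, ICG-001 raised HMOX1 and SRXN1 at 12 h, 2 of 9 genes, where 9.03% of all genes tested changed either way. At 96 h it raised NQO1, GCLM and SRXN1, 3 of 9, against 10.4% of all genes. In PANC1 cells, ICG-001 raised HMOX1 at 12 h, 1 of 8 genes tested, against 2.54% of all genes, and SRXN1 at 96 h, 1 of 9, against 7.28%. C646 changed 0 of 9 genes in HCT116 at 12 h, where 4.18% of all genes changed, and 0 of 9 at 96 h, where 3.16% changed. In PANC1 it changed 0 of 8 at 12 h and 0 of 8 at 96 h, where 6.79% and 3.99% of all genes changed. None of the 9 genes fell at 1.5-fold in any of the 8 comparisons with DMSO. With so few genes, a count of 1 or 0 lies near what these shares give.

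**Figure D1:**
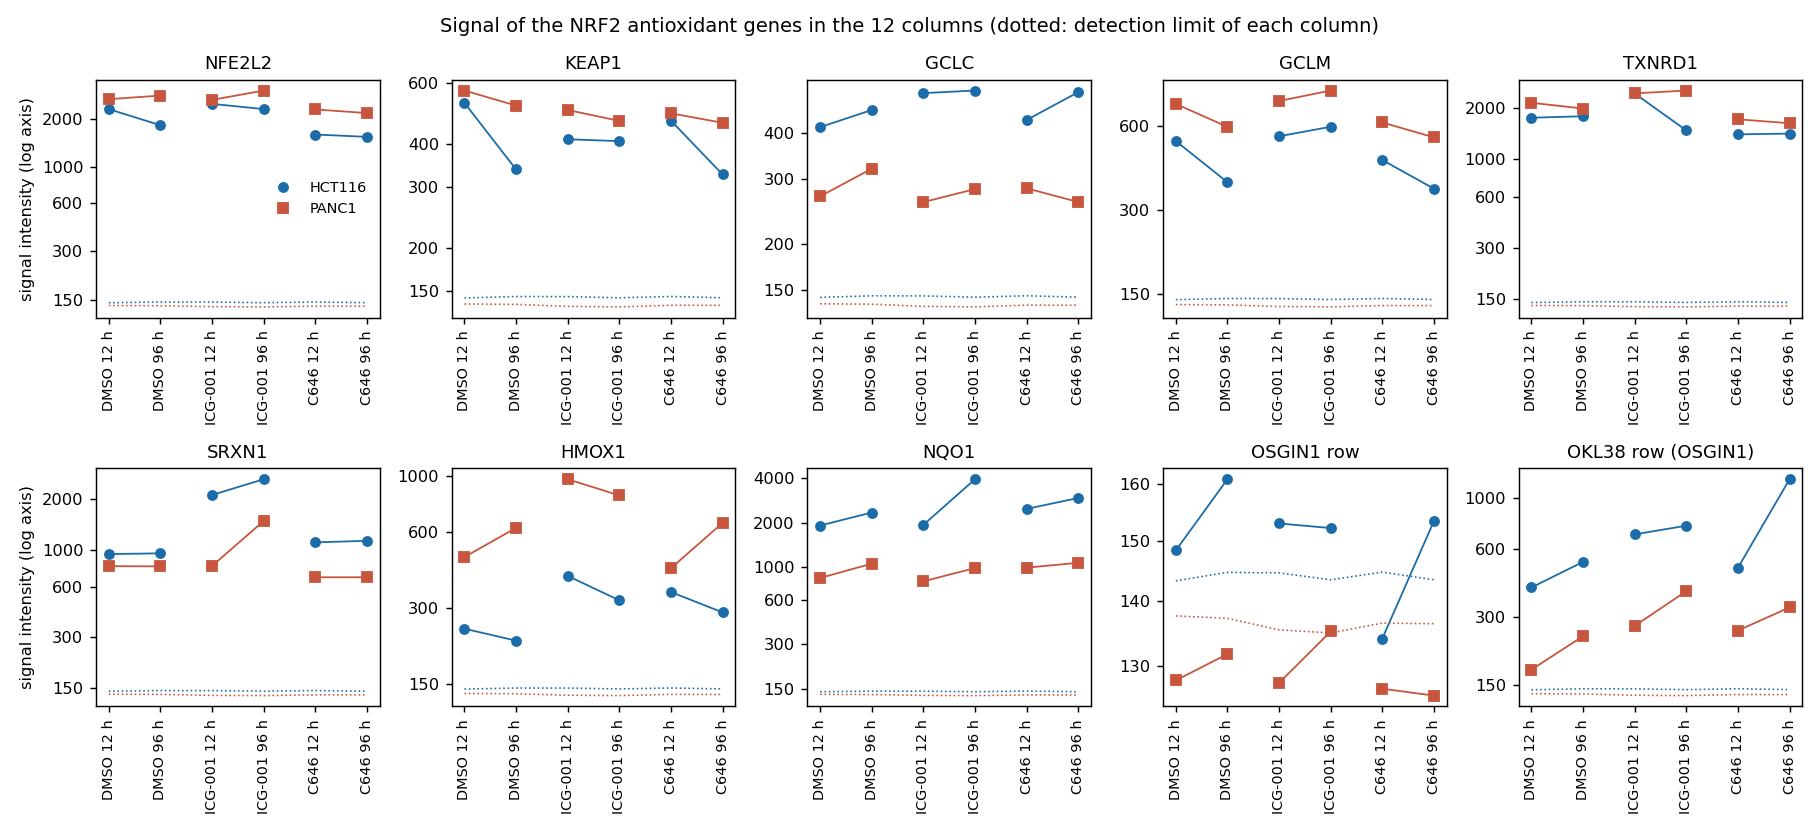
Signal intensity (vertical log axis) of the 9 genes and of the OKL38 row in DMSO, ICG-001 and C646 at 12 h and 96 h, with HCT116 as blue circles, PANC1 as red squares, lines joining both times of an agent and dotted lines for the detection limit of each column. Each point is 1 column, and levels of the lines are not on a common scale. SRXN1 stands highest in both ICG-001 columns of HCT116 (2117 and 2626) and in the 96 h ICG-001 column of PANC1 (1481), and HMOX1 in the ICG-001 columns of PANC1 (970 and 837).

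Promoters of the members were read from RefSeq on build GRCh38.p14, from 250 bases before to 50 bases after the transcription start, to see which carry the core of the antioxidant response element. The table held 11 promoters of 8 members (not HMOX1). The core searched was TGACNNNGC on both strands, where N is any base. It was present in 4 of these 11 promoters, which belong to 3 members (KEAP1, GCLM and TXNRD1), and in 13.3% of all 35116 promoters of that length. A match is a description of letters and not a site. Promoters of NFE2L2, NQO1, GCLC, SRXN1 and OSGIN1 held no match to the core searched within this window. Other forms of the element were not searched, so these promoters cannot be said to lack it. Shown are the matching promoters, and that of SRXN1, the member with the largest rise, for contrast. Each is written 5′ to 3′ on the strand of its gene, and capitals mark the match.
GCLM, chr1:93909381-93909680, minus strand: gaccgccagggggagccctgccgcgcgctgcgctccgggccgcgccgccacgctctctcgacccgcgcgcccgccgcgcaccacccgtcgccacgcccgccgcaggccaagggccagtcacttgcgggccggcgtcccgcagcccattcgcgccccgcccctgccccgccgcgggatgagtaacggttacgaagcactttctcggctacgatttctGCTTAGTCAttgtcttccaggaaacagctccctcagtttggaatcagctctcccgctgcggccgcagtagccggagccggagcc
TXNRD1, upstream start, chr12:104215529-104215828, plus strand: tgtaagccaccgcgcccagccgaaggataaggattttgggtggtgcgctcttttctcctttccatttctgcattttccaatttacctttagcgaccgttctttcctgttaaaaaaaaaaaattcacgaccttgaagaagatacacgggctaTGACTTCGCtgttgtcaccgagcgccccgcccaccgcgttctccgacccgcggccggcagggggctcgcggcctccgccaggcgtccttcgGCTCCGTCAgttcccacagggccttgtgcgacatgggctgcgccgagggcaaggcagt
TXNRD1, downstream start, chr12:104286782-104287081, plus strand: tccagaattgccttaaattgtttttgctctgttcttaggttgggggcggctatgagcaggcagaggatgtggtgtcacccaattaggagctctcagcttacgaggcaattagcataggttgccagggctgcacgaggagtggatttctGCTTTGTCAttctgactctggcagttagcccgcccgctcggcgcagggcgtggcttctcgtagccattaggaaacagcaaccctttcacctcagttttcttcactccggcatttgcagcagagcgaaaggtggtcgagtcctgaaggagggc
KEAP1, chr19:10502722-10503021, minus strand: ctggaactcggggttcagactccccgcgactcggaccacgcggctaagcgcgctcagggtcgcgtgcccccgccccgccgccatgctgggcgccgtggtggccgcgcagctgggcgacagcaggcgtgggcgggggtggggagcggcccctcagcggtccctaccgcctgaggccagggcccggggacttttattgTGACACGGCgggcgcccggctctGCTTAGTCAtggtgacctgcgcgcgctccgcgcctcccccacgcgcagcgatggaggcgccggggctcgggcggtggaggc
SRXN1, chr20:653151-653450, minus strand: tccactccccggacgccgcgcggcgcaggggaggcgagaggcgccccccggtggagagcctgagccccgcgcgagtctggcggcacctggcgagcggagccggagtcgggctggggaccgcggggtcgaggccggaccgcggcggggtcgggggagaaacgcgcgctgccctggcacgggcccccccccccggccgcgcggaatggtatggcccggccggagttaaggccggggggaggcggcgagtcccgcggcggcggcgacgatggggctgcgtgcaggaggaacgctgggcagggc
In GCLM the match GCTTAGTCA, which reads as the core on the opposite strand, begins 34 bases before the start. KEAP1 holds the same letters 31 bases before its start and a second match, TGACACGGC, 54 bases before it. The upstream TXNRD1 promoter holds TGACTTCGC and GCTCCGTCA, 99 and 8 bases before the start, and the downstream one holds GCTTTGTCA, 102 bases before it.

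NFE2L2 and KEAP1, the factor and its sensor, passed 1.5-fold against DMSO in 0 of 8 comparisons. NFE2L2 gave 2291 and 1819 in HCT116 cells in DMSO at 12 h and 96 h, 2469 and 2292 in ICG-001, and 1592 and 1541 in C646. In PANC1 cells its signal was 2641 and 2782 in DMSO, 2615 and 2989 in ICG-001, and 2280 and 2165 in C646. Both C646 columns were the lowest of each line. In HCT116 the log2 ratio of C646 over DMSO was -0.52 at 12 h, where 2.25% of all genes tested lay lower, and -0.24 at 96 h. PANC1 gave -0.21 and -0.36, and none of these passed 1.5-fold. With ICG-001 the log2 ratios were between -0.01 and 0.33. KEAP1 ranged from 326 to 525 in HCT116 and from 460 to 570 in PANC1. Its log2 ratios to DMSO ran from -0.35, with ICG-001 in HCT116 at 12 h, to 0.27, with ICG-001 in HCT116 at 96 h. Beside the second value stands a DMSO signal in HCT116 that was 525 at 12 h and 337 at 96 h.

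GCLC and GCLM encode the catalytic and the modifier subunit of glutamate-cysteine ligase, which makes the first and limiting step of glutathione synthesis. GCLM in HCT116 cells was at 531 and 378 in DMSO at 12 h and 96 h, at 552 and 597 in ICG-001 and at 454 and 358 in C646. At 96 h ICG-001 thus gave 1.58 times the DMSO signal, while at 12 h the fold was 1.04. The rise at 96 h partly rests on a DMSO signal that was lower at 96 h than at 12 h: against the mean of both DMSO columns it was 1.33-fold, under the threshold. In PANC1 cells GCLM was at 721 and 596 in DMSO, 739 and 805 in ICG-001, and 619 and 547 in C646, and the fold of ICG-001 over DMSO was 1.02 at 12 h and 1.35 at 96 h. In each line, GCLM with ICG-001 at 96 h was the highest of the 6 columns. The C646 signals were below the DMSO signals of the same time in both lines, with log2 ratios of -0.23 and -0.08 for HCT116 and -0.22 and -0.12 for PANC1. GCLC passed 1.5-fold in 0 of 8 comparisons with DMSO. It ranged from 415 to 521 in HCT116 and from 260 to 320 in PANC1, and its log2 ratios to DMSO ran from -0.30 to 0.31.

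TXNRD1 encodes cytosolic thioredoxin reductase, which returns oxidised thioredoxin to its reduced form with NADPH. In HCT116 cells its signal was 1758 and 1794 in DMSO at 12 h and 96 h, 2443 and 1480 in ICG-001, and 1403 and 1417 in C646. The ICG-001 columns lay on both sides of DMSO, with folds of 1.39 at 12 h and 0.825 at 96 h. In PANC1 cells TXNRD1 gave 2153 and 1992 in DMSO, 2446 and 2542 in ICG-001, and 1721 and 1631 in C646. Here both ICG-001 columns were the highest and both C646 columns the lowest. All 4 log2 ratios of C646 over DMSO lay between -0.34 and -0.29. The ratio of all genes tested had medians between -0.02 and 0.01 over the comparisons. With C646, 7.64% and 5.92% of all genes tested lay lower than TXNRD1 in HCT116 at 12 h and 96 h. In PANC1 9.74% and 9.36% did.

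SRXN1 encodes sulfiredoxin, which repairs overoxidised peroxiredoxins. It showed the largest change of the 9 genes. In HCT116 cells its signal was 941 and 950 in DMSO at 12 h and 96 h, 2117 and 2626 in ICG-001, and 1105 and 1129 in C646. ICG-001 therefore raised it 2.25-fold at 12 h and 2.76-fold at 96 h, and 0.632% and 0.403% of all genes tested had a higher ratio in these comparisons. In PANC1 cells SRXN1 was at 797 and 795 in DMSO, 799 and 1481 in ICG-001, and 685 and 685 in C646. ICG-001 left it at the DMSO level at 12 h, with a fold of 1.00, and raised it 1.86-fold at 96 h. The DMSO signals at both times differed by under 10 units in each line, so that the choice of control bears little on these folds. C646 gave folds of 1.17 and 1.19 in HCT116. In PANC1 the C646 folds were 0.859 and 0.861.

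HMOX1 encodes heme oxygenase 1, the inducible enzyme that cleaves heme to biliverdin, carbon monoxide and iron. In HCT116 cells it gave 248 and 223 in DMSO at 12 h and 96 h, 402 and 322 in ICG-001, and 347 and 288 in C646. All 4 drug columns were above both DMSO columns. The fold over DMSO was 1.62 with ICG-001 at 12 h, past the threshold, and 1.44 at 96 h, under it. C646 gave folds of 1.40 at 12 h and 1.29 at 96 h, both under it. These signals lie close to the background, which shrinks a ratio. After background correction by normexp these 4 folds, in the order given, were 1.99, 1.79, 1.64 and 1.52, all past 1.5-fold. The share of all genes past 1.5-fold after this correction was not computed. In PANC1 cells HMOX1 was at 477 and 623 in DMSO, 970 and 837 in ICG-001, and 431 and 652 in C646. ICG-001 raised it 2.03-fold at 12 h, and 0.310% of all genes tested had a higher ratio. At 96 h the fold was 1.34, against a DMSO signal that was itself 1.30 times that at 12 h, and it was 1.54 against the mean of both DMSO columns. C646 gave 0.903 at 12 h and 1.05 at 96 h in PANC1.

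NQO1 encodes a quinone reductase and is a widely used reporter of NRF2 activity. In HCT116 cells its signal was 1917 and 2347 in DMSO at 12 h and 96 h, 1937 and 3944 in ICG-001, and 2483 and 2945 in C646. ICG-001 raised it 1.68-fold at 96 h and left it at a fold of 1.01 at 12 h. C646 gave 1.30 at 12 h and 1.26 at 96 h. In PANC1 cells NQO1 stayed between 802 and 1071 in all 6 columns, and the folds over DMSO ran from 0.934 to 1.18. The rise of NQO1 at 96 h was thus measured in HCT116, and whether the lines differ was not tested.

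OSGIN1 encodes a growth inhibitor induced by oxidative stress. The row with this symbol stayed near the detection limit, at 134 to 161 in HCT116 and 126 to 135 in PANC1, where it exceeded the limit in 1 column, ICG-001 at 96 h. RefSeq gives OKL38 as an older symbol of OSGIN1, and the table holds a row of that name. It was looked up after the values of the OSGIN1 row had been seen, and which transcript either probe binds was not analysed here. The OKL38 row was above the limit in all 12 columns. In HCT116 cells it read 405 and 525 in DMSO at 12 h and 96 h, 694 and 758 in ICG-001, and 494 and 1215 in C646. In PANC1 cells it read 176 and 247 in DMSO, 274 and 390 in ICG-001, and 261 and 331 in C646. In both lines and at both times, each drug column was above the DMSO column of that time. ICG-001 raised the OKL38 signal 1.71-fold in HCT116 at 12 h, 1.56-fold in PANC1 at 12 h and 1.58-fold in PANC1 at 96 h, and the fold in HCT116 at 96 h was 1.44. C646 raised it 2.31-fold in HCT116 at 96 h, and 0.102% of all genes tested had a higher ratio. The other C646 folds were 1.22 in HCT116 at 12 h, 1.49 in PANC1 at 12 h and 1.34 in PANC1 at 96 h. Of the 8 ratios to DMSO, 4 passed 1.5-fold in this row and 0 in the OSGIN1 row. After normexp 7 passed in the OKL38 row, among them C646 in PANC1 at 12 h with a fold of 1.99 and at 96 h with 1.55. The share of all genes past 1.5-fold after normexp was not computed, so this count has none to be read against. The rows disagree on this gene, and the count of 0 members raised by C646 holds for the rows that carry the members' names.

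**Figure D2:**
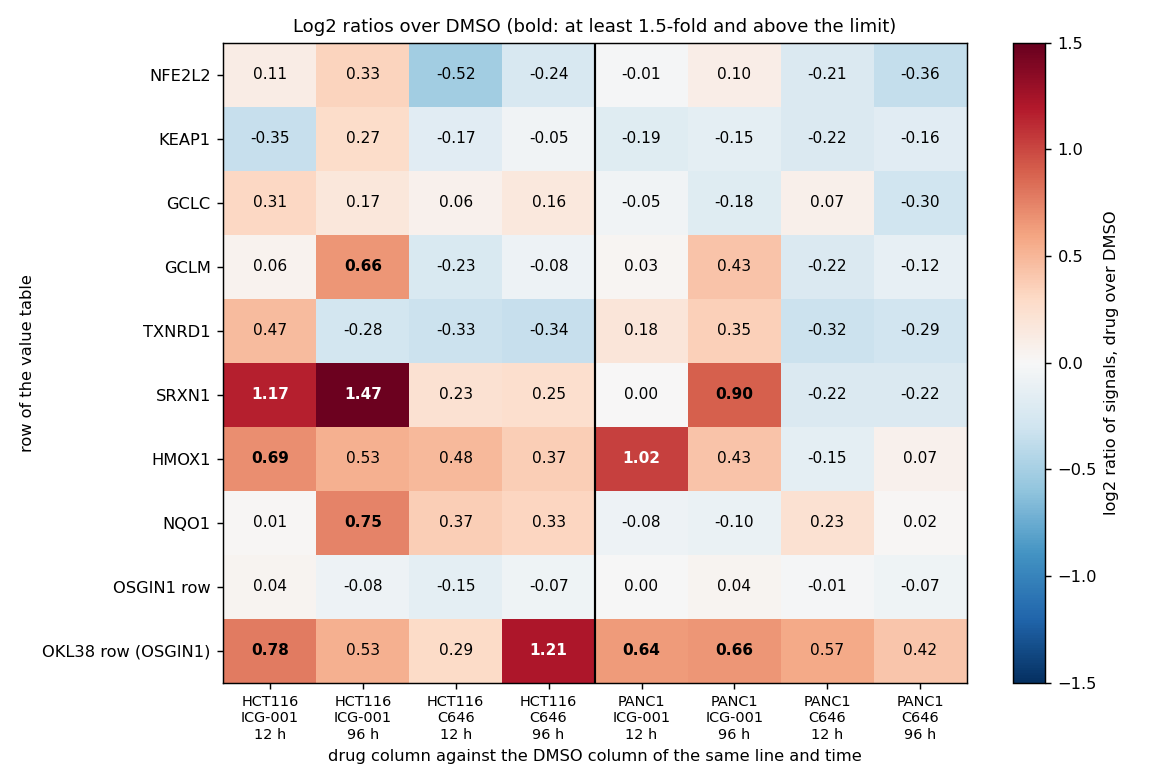
Log2 ratio of the signal in each drug column over the DMSO column of the same line and time (colour and printed number) for the 9 genes and the OKL38 row, with bold numbers where the change was at least 1.5-fold. SRXN1 reached 1.17 and 1.47 with ICG-001 in HCT116 and 0.90 in PANC1 at 96 h, and no C646 ratio of the 9 rows passed the threshold while the OKL38 row reached 1.21 in HCT116 at 96 h.

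ICG-001 and C646 were given at the same dose and times, so their columns were also compared directly, without a DMSO column. NFE2L2, TXNRD1 and SRXN1 were higher with ICG-001 than with C646 in HCT116 at 12 h, 3 of 9 genes, against 6.41% of all genes changed. At 96 h in HCT116, GCLM and SRXN1 were, 2 of 9 against 6.51%. In PANC1 at 12 h HMOX1 was, 1 of 8 against 2.54%, and at 96 h TXNRD1 and SRXN1 were, 2 of 9 against 6.75%. None of the 9 rows was at least 1.5-fold lower with ICG-001. In HCT116 the 9 genes had a median log2 ratio of 0.24 at 12 h and 0.32 at 96 h. In PANC1 the median was 0.21 at 12 h, over the 8 genes tested, and 0.36 at 96 h over 9. The median of all genes tested lay between -0.001 and 0.006. SRXN1 had log2 ratios of 0.94 at 12 h and 1.22 at 96 h in HCT116. Its PANC1 ratios were 0.22 and 1.11. TXNRD1, whose signal was above DMSO with ICG-001 in 3 of 4 comparisons and below it with C646 in all 4, had HCT116 ratios of 0.80 and 0.06 and PANC1 ratios of 0.51 and 0.64. Those of NFE2L2 were 0.63 and 0.57 in HCT116, then 0.20 and 0.47 in PANC1. HMOX1 differed most between the drugs in PANC1 at 12 h, at 970 with ICG-001 and 431 with C646, a 2.25-fold difference. NQO1 stood on the other side at 12 h, with ratios of -0.36 in HCT116 and -0.31 in PANC1. The OKL38 row was higher with C646 than with ICG-001 in HCT116 at 96 h, at 1215 against 758. With 1 column a group, an interval of these differences cannot be given, and ratios near 0 do not show that the drugs act alike.

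**Figure D3:**
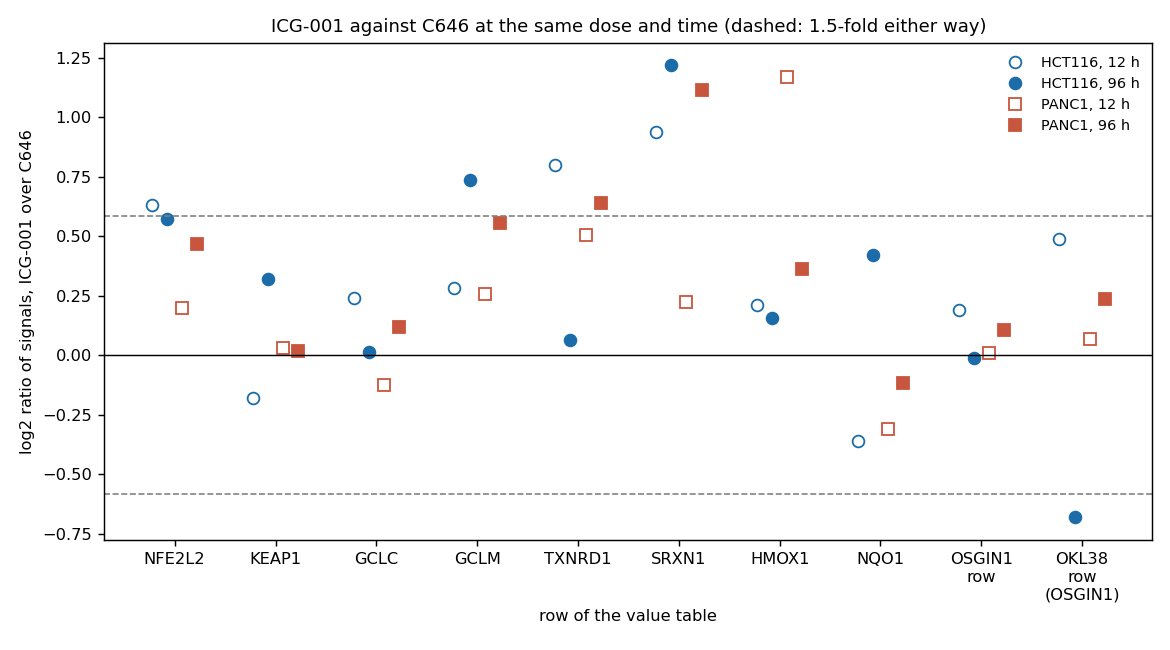
Log2 ratio of the signal with ICG-001 over that with C646 (vertical axis) for each gene, with HCT116 as blue circles and PANC1 as red squares, open at 12 h and filled at 96 h, and dashed lines at 1.5-fold either way. SRXN1 lies above the upper line in 3 of 4 comparisons, and the OKL38 row in HCT116 at 96 h (-0.68) is the only point below the lower line.

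Between 12 h and 96 h the DMSO columns themselves shifted for some of these genes. KEAP1 fell to 0.642 of its 12 h signal in HCT116 DMSO cells, 1 of 9 genes past the threshold against 3.14% of all genes, and GCLM was at 0.712. In PANC1 DMSO cells 0 of 8 genes changed, against 1.31%, and HMOX1 was at 1.30 and NQO1 at 1.25 times its 12 h signal. In ICG-001, NQO1 rose 2.04-fold and TXNRD1 fell to 0.606 of its 12 h signal in HCT116, 2 of 9 genes against 6.91% of all genes. SRXN1 rose 1.85-fold in PANC1, 1 of 9 against 3.94%. In C646, 0 of 9 genes changed in HCT116 against 7.18%, and in PANC1 HMOX1 rose 1.51-fold, 1 of 8 against 0.486%. That last value sits on the threshold and was 1.30-fold in the DMSO columns of the same line.

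The lines differed in the levels of some members before any drug. On a common scale, set by quantile normalization over all 12 columns, NQO1 in DMSO was 2.40 times as high in HCT116 as in PANC1 at 12 h and 2.35 times at 96 h. GCLC was 1.56 times as high at 12 h, and at 96 h its signals on this scale were 471 and 314. HMOX1 was lower in HCT116, at 0.528 of the PANC1 level at 12 h and 0.361 at 96 h. NFE2L2, GCLM and KEAP1 were lower in HCT116 than in PANC1 at both times, with ratios between 0.655 and 0.957. TXNRD1 was at 0.861 and 0.956, and SRXN1 at 1.25 and 1.27.

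The other genes of the pathway were taken from 7 lists that hold 82 genes. With ICG-001 in HCT116, 8 of 68 genes tested rose and 12 fell at 12 h, where 4.85% of all genes rose and 4.18% fell. At 96 h 14 rose and 10 fell, and of 16878 genes tested 878 rose and 874 fell. In PANC1, ICG-001 raised 6 of 68 and lowered 1 at 12 h, where 2.20% and 0.339% of all genes changed, and raised 13 of 70 and lowered 7 at 96 h, where 667 and 617 of 17640 genes did. C646 raised 0 and lowered 3 of 68 in HCT116 at 12 h, where 2.63% of all genes rose and 1.55% fell, and raised 1 and lowered 0 of 68 at 96 h, against 1.92% and 1.24%. In PANC1 it raised 2 and lowered 3 of 67 at 12 h, against 4.05% and 2.74%, and raised 2 and lowered 2 of 68 at 96 h, where 481 and 203 of 17131 genes did. The C646 counts lie near these shares. The median log2 ratio of these genes ran from -0.15 to 0.08 over the 8 comparisons. The lists moved in both directions, and the genes below are named by a rule on the size and repeat of their change, or are given whatever their values.

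Among regulators and partners of NRF2, SQSTM1, which encodes p62, an autophagy receptor that binds KEAP1 and is itself an NRF2 target, rose with ICG-001 in all 4 comparisons. Its signal in HCT116 was 4266 and 3972 in DMSO at 12 h and 96 h, 8233 and 10806 in ICG-001, and 5805 and 6238 in C646. The folds of ICG-001 over DMSO were 1.93 and 2.72 in HCT116. In PANC1 they were 1.52 and 1.64. C646 raised it 1.57-fold in HCT116 at 96 h. NFE2L1, a relative of NRF2 known for control of proteasome genes, rose with ICG-001 in HCT116 from 656 to 1530 at 12 h and from 624 to 1536 at 96 h, and its folds in PANC1 were 0.987 and 1.35. Of 9 genes tested in this list in HCT116, these were the 2 that rose with ICG-001 at either time and none fell. Of all genes tested, 4.85% rose and 4.18% fell at 12 h, and 5.20% rose and 5.18% fell at 96 h.

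In the list of glutathione synthesis and use, ICG-001 raised 3 and lowered 3 of 14 genes tested in HCT116 at 12 h. There 4.85% of all genes rose and 4.18% fell. At 96 h it raised 5 and lowered 2 of 14, where 5.20% of all genes rose and 5.18% fell. SLC3A2, the heavy chain of the cystine importer and of other amino acid transporters, rose 3.67-fold and 4.04-fold in HCT116. In PANC1 it rose 2.30-fold and 1.89-fold. SLC7A11, the light chain of the cystine importer, was near the limit in DMSO, with signals from 125 to 152 over both lines, and with ICG-001 it reached 214 and 175 in HCT116. In PANC1 it reached 210 and 188, and it rose there at 12 h, at least 1.53-fold. CHAC1, which degrades glutathione, rose 1.96-fold and 2.22-fold in HCT116 and 1.53-fold in PANC1 at 96 h, and at least 1.54-fold in PANC1 at 12 h, where the DMSO signal was under the limit. SLC3A2, SLC7A11, CHAC1 and SESN2 are also known targets of ATF4, the factor of the amino acid stress response. ABCC3, an exporter of conjugates, rose 2.24-fold and 3.80-fold with ICG-001 in HCT116 and 2.19-fold in PANC1 at 96 h, with a fold of 1.49 at 12 h. C646 raised it in PANC1 from 403 to 647 at 12 h and 1.86-fold at 96 h. ABCC2, a related exporter, fell with ICG-001 in HCT116 from 638 to 335 at 12 h and from 736 to 288 at 96 h. GLRX, a glutaredoxin, fell in HCT116 at 12 h from 2152 in DMSO to 1155 with ICG-001 and 969 with C646, and in PANC1 at 12 h from 910 to 581 with ICG-001.

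In the thioredoxin and peroxiredoxin list, ICG-001 raised 1 and lowered 2 of 12 genes in HCT116 at 12 h. At 96 h it raised 2 and lowered 1. The shares of all genes there were 4.85% and 4.18% at 12 h, and 5.20% and 5.18% at 96 h. In PANC1 it raised 2 and lowered 0 of 12 at each time. There 2.20% of all genes rose and 0.339% fell at 12 h, and 3.78% rose and 3.50% fell at 96 h. SESN2, which encodes a sestrin, rose 2.16-fold with ICG-001 in HCT116 at 12 h. At 96 h it was at 242 against a DMSO signal of 140 that was under the limit. In PANC1 it rose at 12 h to 207, from a DMSO signal of 122 that was under the limit, and at 96 h from 153 to 245. TXNIP, an inhibitor of thioredoxin, rose in PANC1 from 322 to 795 at 12 h and from 431 to 1341 at 96 h with ICG-001, and 1.79-fold with C646 at 12 h, and was under the limit in HCT116. PRDX2, a peroxiredoxin, fell in HCT116 to 0.664 and 0.637 of DMSO with ICG-001. TXN, thioredoxin itself, had folds between 0.958 and 1.26 in the 8 comparisons. Of 7 enzymes that supply NADPH, ICG-001 raised 0 and lowered 1 in HCT116 at 12 h. At 96 h it raised 1 and lowered 2 there, PGD and TKT. In PANC1 it raised 0 and lowered 0 at 12 h, and raised 1 and lowered 1 at 96 h. The shares of all genes are those given above for the same comparisons. PGD fell with ICG-001 in HCT116 at both times, to 0.593 and 0.665 of DMSO, and in PANC1 at 96 h, to 0.626. IDH1 rose with ICG-001 at 96 h, 1.61-fold in HCT116 and 1.84-fold in PANC1, and fell with C646 in HCT116 at 12 h, from 1645 to 1032.

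In the heme and iron list, FTH1, ferritin heavy chain, rose 2.90-fold and 3.80-fold with ICG-001 in HCT116 and 1.59-fold in PANC1 at 96 h, with a fold of 1.22 at 12 h. FTH1 has many near-identical copies, so its row is uncertain. BLVRA, the biliverdin reductase downstream of heme oxygenase, fell in HCT116 to 0.424 and 0.635 of DMSO and in PANC1 at 96 h to 0.655. BLVRB, a second biliverdin reductase, rose in HCT116 at 12 h 1.52-fold and in PANC1 at 96 h 1.90-fold. HMOX2, the constitutive heme oxygenase, fell at 96 h with ICG-001, from 437 to 258 in HCT116 and from 362 to 181 in PANC1, while HMOX1 was above DMSO in both. C646 also lowered HMOX2 in PANC1, to 244 at 12 h from 401 in DMSO and to 229 at 96 h. TFRC, the transferrin receptor, fell in PANC1 at 96 h from 11963 in DMSO to 5221 with ICG-001 and 7861 with C646, and at 12 h from 10569 to 6867 with C646. Of 6 other antioxidant enzymes, ICG-001 raised 0 and lowered 3 in HCT116 at 12 h, and raised 1 (MSRA) and lowered 2 at 96 h. In PANC1 it raised 0 and lowered 0 at 12 h, and raised 1 (SOD2) and lowered 1 at 96 h. Of all genes tested, 4.85% rose and 4.18% fell in HCT116 at 12 h, and 5.20% and 5.18% at 96 h. In PANC1 these shares were 2.20% and 0.339%, then 3.78% and 3.50%. SOD1, cytosolic superoxide dismutase, fell in HCT116 with ICG-001 to 0.640 and 0.569 of DMSO. CAT, catalase, fell there to 0.538 and 0.609, and to 0.492 in PANC1 at 96 h. In the quinone and carbonyl list, ICG-001 raised 0 and lowered 2 of 11 genes tested in HCT116 at 12 h. At 96 h it raised 2 of 10 (NQO2 and ALDH3A2) and lowered 1. In PANC1 it raised 0 and lowered 0 of 10 at 12 h, and raised 1 (PIR) and lowered 1 (UGDH) of 10 at 96 h. AKR1C3, an aldo-keto reductase, fell with ICG-001 in HCT116 from 342 to 190 at 96 h. At 12 h AKR1C3 read 210 in DMSO and 139, under the limit, in ICG-001.

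**Figure D4:**
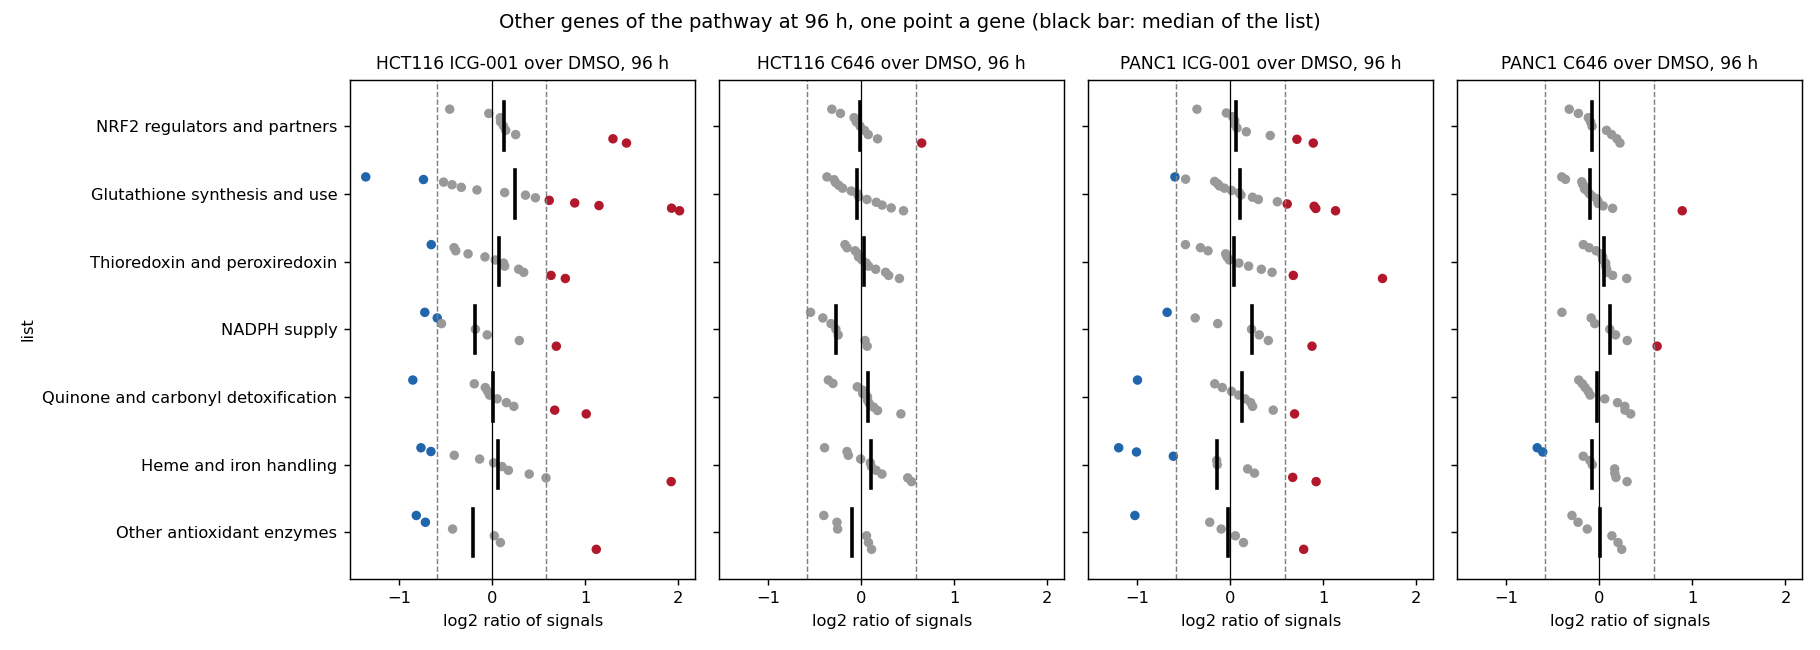
Log2 ratio of each drug over DMSO at 96 h (horizontal axis) for the genes of the 7 lists, 1 point a gene above the limit, red where it rose and blue where it fell at least 1.5-fold (dashed lines), with the list median as a black bar. With ICG-001, 14 genes rose and 10 fell in HCT116 and 13 rose and 7 fell in PANC1, whereas with C646 1 rose and 0 fell in HCT116 and 2 rose and 2 fell in PANC1.

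The genes most like HMOX1 were searched among 17012 genes above the limit in both lines, by the root mean square difference of the 8 log2 ratios to DMSO. They included UHRF1BP1, at 0.218 with a Pearson r of 0.78, and FAM24B, at 0.238 with 0.77. Nearest to the mean profile of the 7 targets were TMEM182, at 0.060 with 0.96, EIF4EBP1, at 0.067 with 0.95, and FAF1, at 0.086 with 0.92. TMEM182 lay near the detection limit, from 133 with C646 in PANC1 at 12 h to 211 with ICG-001 in HCT116 at 96 h. EIF4EBP1 read 145 to 191 in PANC1. The 7 targets include the OSGIN1 row, also near the limit, and signals close to the background shrink ratios and so these distances. Each r is over 8 comparisons that share DMSO columns, and it is a description.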

How the data were processed

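RNA of both cell lines was hybridised to Illumina HumanHT-12 v4 BeadChips. The deposited values are signal intensities on a linear scale, which the authors exported from GenomeStudio (version not given in the sources used here) after quantile normalization, leaving the background in, and averaged over replicate arrays into 1 column a group. Groups were taken from the sample labels. The members and gene lists were chosen with earlier results of these data known. Log2 ratios between columns of a line were computed in Python 3.11.15 with pandas 2.3.3. Detection limits lay 2.33 SD above the mode of a column's log2 signals, with the SD estimated on the dim side of the mode. List entries were matched to rows, 121 by symbol and 2 by an older symbol. Named pathway genes changed at least 1.5-fold the same way in 2 or more of 8 comparisons with DMSO, up to 5 a list by size, besides SLC7A11, SQSTM1, TXN and FTH1, and some genes that the rules select are not reported here. Alternatives were other folds, no limit, a limit at 5 SD, normexp with an offset of 16 (limma 3.58.1, R 4.3.3), centring on the median and quantile normalization over 12 columns. Ratios against the mean of both DMSO columns and the OKL38 row were added after seeing the data. The ratio step was tested on simulated data, with 2-fold changes in genes well above the limit. That setting does not test changes near 1.5-fold, dim genes or spread between replicates. Several probes of a gene were merged into 1 row before deposit, and probe positions were not analysed here.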

Additional observations from a re-analysis of the deposited data

Results flagged for a closer look

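NQO1 and GCLC moved opposite ways in the lines with ICG-001. For NQO1 both log2 ratios to DMSO were above 0 in HCT116 (0.01 and 0.75) and below 0 in PANC1 (-0.08 and -0.10), and the mean ratio was 0.469 higher in HCT116. For GCLC the HCT116 ratios were 0.31 and 0.17 against -0.05 and -0.18 for PANC1, and the mean ratio was 0.358 higher in HCT116. SRXN1 did the same with C646, at 0.23 and 0.25 for HCT116 and -0.22 and -0.22 for PANC1, a mean ratio 0.458 higher in HCT116. The difference between the lines was not tested, since every value is 1 column, and both ratios of a line share no column. Among 17021 genes that exceeded the limit in each line, 10.2% moved opposite ways in this sense with ICG-001 and 10.2% with C646, and of the 9 genes 2 and 1 did. The NQO1 ratio of 0.01 and the GCLC ratio of -0.05 are smaller than the SD of dim genes, and the only ratio given here that passed 1.5-fold is the 0.75 of NQO1.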

How the results depend on the processing

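No paired analysis was possible because every group is 1 column of averaged arrays. Of 8 comparisons with DMSO, the 9 genes gave 7 changes, the 4 comparisons between drugs 8, and the 6 between times 5. These counts did not move by over 1.5 times with no limit, a limit at 5 SD, centring, or quantile normalization over 12 columns. At 1.2-fold the 3 sums (DMSO, drugs, times) were 28, 18 and 17, and at 2-fold 3, 3 and 1. The pathway lists gave 84 changes, 201 at 1.2-fold and 24 at 2-fold. Shares of all genes were computed at 1.5-fold on the deposited values only. Counts at 1.2-fold, at 2-fold and after normexp therefore have no share to be read against. With ICG-001 at 1.2-fold, HCT116 had 5 genes at 12 h (1 lower, KEAP1) and 7 at 96 h (1 lower, TXNRD1). PANC1 had 4 at 96 h, all higher. With C646 HCT116 had 4 (2 of them lower) and 3 (1 lower), and PANC1 1 and 3, all lower, with TXNRD1 lower in all 4 comparisons. Between drugs, 1.2-fold gave 5 and 5 genes for HCT116, and for PANC1 3 and 5. Of these, NQO1 was lower with ICG-001 at 12 h in each line, and the rest were higher. At 2-fold, ICG-001 kept 1 gene at each time in HCT116 and 0 in PANC1 at 96 h, and the drugs differed in 0 and 1 genes in HCT116, and in 1 in PANC1 at 96 h. After normexp C646 raised 1 gene (HMOX1) at each time in HCT116. Against the mean of both DMSO columns, ICG-001 in PANC1 at 96 h raised 2 genes (HMOX1 and SRXN1). With OSGIN1 read from the OKL38 row, the sum over DMSO comparisons was 11, with 2 genes for ICG-001 in PANC1 at 12 h, 2 at 96 h, and 1 for C646 in HCT116 at 96 h. Of 162 ratios of the 9 genes, 4 changed sign under a rescaling, none above 0.035 in size (log2). The cause of these shifts was not tested.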
